A study of Homo sapiens with 16 samples.

Results

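Chemokines and chemokine receptors were examined as mRNA in OCI-AML3, a human acute myeloid leukaemia cell line that the labels place in peripheral blood. The members were every gene whose symbol reads CCL, CXCL, XCL or CX3CL, or CCR, CXCR, XCR, CX3CR or ACKR, followed by a number, with letters after the number allowed. The members reported here are 68 of the 62700 genes in the deposited table, 44 in the ligand families and 24 in the receptor families. Of these, 4 are not protein coding in GENCODE v29, namely CXCR2P1, CXCL1P1, ACKR4P1 and CCR12P. The 2 hyphenated symbols CCL15-CCL14 and CCL3-AS1 were left out. An average of at least 10 normalised read counts over the 16 libraries was reached by 19 members, 11 ligands and 8 receptors, and these are called expressed here. The other 49 lay under this limit.

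The study treated OCI-AML3 cells for 3 h and sequenced 16 RNA libraries in 5 groups. Untreated cells gave 4 libraries, and 3 libraries each came from cells given ATRA (all-trans retinoic acid, which activates every retinoic acid receptor) at 0.1 µM, or Am80 (AM80 in the labels, tamibarotene, a synthetic agonist selective for the receptor RARA) at 0.1 µM. The remaining groups of 3 received ATRA or Am80 at these doses together with GSK-LSD1, an inhibitor of the histone demethylase LSD1, at 0.1 µM and MB3, an inhibitor of the histone acetyltransferase GCN5, at 100 µM. These are called ATRA plus inhibitors and Am80 plus inhibitors. No group had the inhibitors without a retinoid, so what the inhibitors did was measured only on top of a retinoid, and GSK-LSD1 cannot be told apart from MB3. The labels do not say whether libraries of a group came from separate cultures, so p-values measure the spread between these libraries, which may be technical.

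Chemokines are small secreted proteins that set up gradients along which leukocytes migrate, and their receptors pass the signal through heterotrimeric G proteins. CXC ligands such as CXCL8 draw neutrophils, CC ligands such as CCL2 draw monocytes, and atypical receptors take up chemokines without G protein signalling. In acute myeloid leukaemia CXCR4 is known for holding blasts in the bone marrow niche, and several ligand genes are known as early targets of inflammatory transcription factors whose mRNAs are short-lived.

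Libraries held 11963898 to 33789718 reads in genes, and counts are given after division by a size factor of 0.717 to 1.93, the number of reads behind 1 normalised count. All 9 markers of a myeloid leukaemia line were expressed, among them CD33, SPI1, CEBPA and HOXA9. Of markers of other cells, CD3D and CD2 (T cells), MS4A1 (B cells), CEACAM8 (neutrophils), HBA1 and HBA2 (red cells) and PF4 (platelets) had no read in any library. The summed level of 5 monocyte and macrophage markers ran from 163 to 185 normalised counts without treatment, from 123 to 148 with ATRA and from 122 to 173 with Am80, and with the inhibitors from 159 to 209 beside ATRA and from 205 to 230 beside Am80. Most of it was CD14 and CD163, while MRC1 had at most 2 reads. CD163 averaged 74.4 normalised counts without treatment, 40.6 with ATRA and 39.7 with Am80, and 108 and 110 when the inhibitors joined ATRA and Am80. CD14 averaged 93.0, 90.0, 102, 76.2 and 104 in the same order of groups. The part of these markers in the results was not tested. In bulk samples fewer cells expressing a gene and less RNA per cell cannot be told apart.

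The promoters of the neighbouring CXC ligands are shown because CXCL8, CXCL1 and CXCL3, which lie in 1 stretch of chromosome 4, rose when the inhibitors were added, whereas CXCL2 beside them passed no test. In the annotation of GRCh38 the 4 genes span 359 kb, from 73740506 to 74099293. Each sequence is the 250 bases before the RefSeq start of transcription in GRCh38.p14, read 5′ to 3′ on the strand of the gene, with capitals marking a match to the NF-kappaB core GGANTTNCC, to the AP-1 motif TGANTCA, to the C/EBP motif TTGCNNAA or to the TATA box TATAAA on either strand. The windows are chr4:73740319-73740568 on the plus strand for CXCL8, chr4:73869143-73869392 on the plus strand for CXCL1, chr4:74099196-74099445 on the minus strand for CXCL2 and chr4:74038690-74038939 on the minus strand for CXCL3.
CXCL8: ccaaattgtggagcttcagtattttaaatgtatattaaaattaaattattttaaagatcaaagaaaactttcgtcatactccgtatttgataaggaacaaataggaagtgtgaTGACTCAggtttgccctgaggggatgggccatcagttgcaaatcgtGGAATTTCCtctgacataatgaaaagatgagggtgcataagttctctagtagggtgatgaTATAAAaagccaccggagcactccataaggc
CXCL1: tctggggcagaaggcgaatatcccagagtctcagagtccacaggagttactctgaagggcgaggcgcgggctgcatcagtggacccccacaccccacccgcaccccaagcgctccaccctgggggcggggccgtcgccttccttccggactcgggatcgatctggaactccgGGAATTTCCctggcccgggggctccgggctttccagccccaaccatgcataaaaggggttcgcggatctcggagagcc
CXCL2: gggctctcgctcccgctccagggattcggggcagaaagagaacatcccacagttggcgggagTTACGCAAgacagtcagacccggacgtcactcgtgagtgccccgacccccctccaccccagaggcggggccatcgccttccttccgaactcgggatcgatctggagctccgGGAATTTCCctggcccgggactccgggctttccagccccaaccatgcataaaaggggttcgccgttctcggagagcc
CXCL3: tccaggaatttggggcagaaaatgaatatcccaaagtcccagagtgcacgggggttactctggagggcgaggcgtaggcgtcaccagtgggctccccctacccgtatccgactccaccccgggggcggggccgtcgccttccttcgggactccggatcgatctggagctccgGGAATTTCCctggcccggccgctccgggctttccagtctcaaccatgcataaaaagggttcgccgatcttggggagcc
The NF-kappaB core stood 91 bases before the start of CXCL8, 78 before CXCL1, 77 before CXCL2 and 78 before CXCL3. CXCL2 and CXCL3 shared an unbroken run of 37 bases around it, and CXCL1 and CXCL2 one of 42 bases nearer the start, while the longest run that CXCL8 shared with any of the other three was the core itself. The AP-1 letters TGANTCA were found in CXCL8 alone among these 4, 137 bases before the start. The C/EBP letters TTGCNNAA were found in CXCL2 alone, 188 bases before its start. CXCL8 holds the near match ttgcaaat ahead of its NF-kappaB core, and sites spelled otherwise were not searched.

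RefSeq promoters were matched for 15 of the 19 expressed members, leaving CCL2, CCL5, ACKR3 and CXCL16. The NF-kappaB core was present in 5 of these 15 and in 3.67% of all 27305 promoters, the fifth being CCL23. AP-1 was present in 3 of 15 (CXCL8, CCR2 and CCL24) and in 6.60% of all promoters. C/EBP was present in 3 of 15 (CXCL2, CCR2 and CCR3) and in 9.13%, the TATA box in 4 of 15 (CXCL8, CCL20, CCL23 and CXCR4) and in 11.1%, and the cyclic AMP response element core TGACGTCA in 0 of 15 and in 1.77%. Retinoic acid response elements of the DR5, DR2 and DR1 kinds were searched only as direct repeats of AGNTCA. They were found in 0 of 15 and in 0.0769%, 0.0366% and 0.0989% of all promoters. These rates are too low for a match to be likely in 15 windows. A match describes exact letters only, sites spelled otherwise were not searched for any motif, and no binding was measured.

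With each retinoid, mRNA levels of some expressed members differed from untreated cells at 3 h. Levels of CCL2, CCL20, CCL23 and CCL24 and of the receptors CCR1, CXCR5 and ACKR3 rose with ATRA and with Am80, and CXCL1 and CX3CR1 fell with both. A member is called higher or lower where limma gave a Benjamini-Hochberg adjusted p under 0.05 over all 14643 genes tested and the change exceeded 1.5-fold. With ATRA 8 of the 19 expressed members were higher and 3 lower, beside 6.52% and 2.94% of all genes tested. With Am80 7 were higher and 2 lower, beside 6.41% and 3.76% of all genes. The extra calls with ATRA were CCR3, at an adjusted p of 0.0498, and the fall of CXCL8. CXCR5, ACKR3, CCL20, CCL24 and CCR3 averaged under 10 normalised counts in untreated cells and passed the limit through groups where they were high. Their rises therefore add nothing to the counts of 8 and 7. Among the 13 members with a mean of at least 10 in every group, 3 were higher and 3 lower with ATRA. With Am80 3 of these 13 were higher and 2 lower.

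Adding GSK-LSD1 and MB3 raised 5 ligands above the retinoid alone, with either retinoid: CXCL8, CXCL1, CXCL3, CCL2 and CCL20. CCR2 was lower with both retinoids. No receptor was called higher by limma fitted on all 16 libraries, where CXCR4 had an unadjusted p under 0.05 with both. CXCR5 was called higher over ATRA by edgeR, by DESeq2 and by limma fitted on the compared groups alone. With ATRA 5 members were higher and 2 lower, beside 8.15% and 11.4% of all genes, the second being CCR3. With Am80 5 were higher and 2 lower, beside 6.81% and 8.9% of all genes, the second being CX3CR1. CXCL3, CCL20 and CCR3 had a mean under 10 normalised counts in some group, so their calls add nothing to these counts. Among the 13 members with a mean of at least 10 in every group, 3 were higher and 1 lower with ATRA. With Am80 3 of these 13 were higher and 2 lower. When libraries were scaled to total reads instead, the ATRA split became 5 higher and 4 lower (6 and 4 with edgeR), and the median of all genes moved to -0.16 for ATRA and -0.13 for Am80. The calls of 5 higher ligands stood under that scaling in both comparisons.

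Against untreated cells, 10 members were higher and 2 lower with ATRA plus inhibitors, beside 14.2% and 14.8% of all genes. The same split of 10 and 2 was found with Am80 plus inhibitors, beside 12.9% and 13.1%. These comparisons share the untreated libraries with those of the retinoids alone. Of the 19 members, 13 had a mean of at least 10 normalised counts in all 5 groups, whereas CXCR5, ACKR3, CCL20, CCL24, CCR3 and CXCL3 passed the limit on low values through the groups in which they were high, so their calls add nothing to a count. The median difference of the 13 was 0.15 log2 units with ATRA and 0.22 with Am80, against -0.02 and -0.01 over all genes. Among the 13, 3 were higher and 3 lower with ATRA, 3 and 2 with Am80, 3 and 1 when inhibitors were added to ATRA, 3 and 2 when they were added to Am80, and 5 and 2 in each combination against untreated cells.

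**Figure D1:**
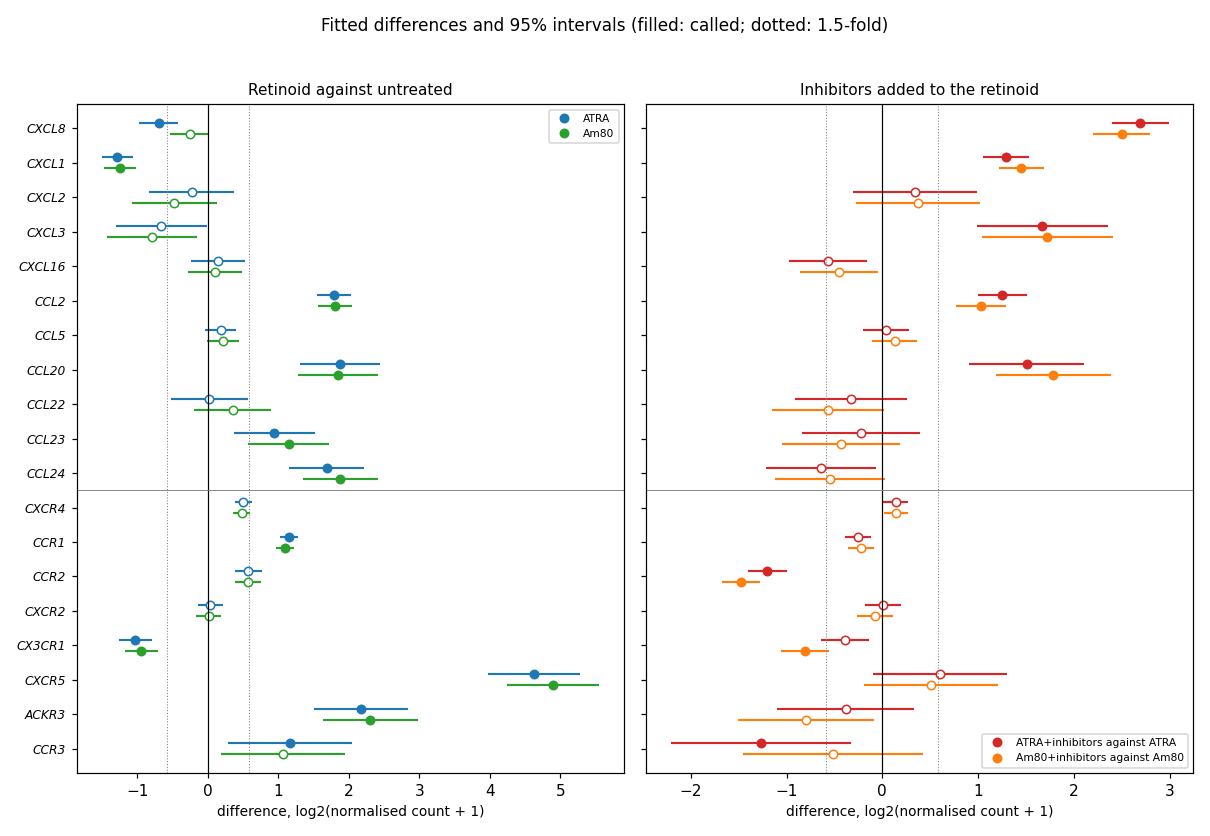
Differences of the 19 expressed members in log2(normalised count + 1), with ligands above the grey line and receptors below it, as limma estimates with 95% confidence intervals from 4 untreated and 3 libraries of each other group. The left panel compares ATRA and Am80 with untreated cells and the right panel each combination with its retinoid; filled points are called, open points are not, and dotted lines mark 1.5-fold. The 5 called rises on the right are all ligands.

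CXCL8, the interleukin-8 gene and a neutrophil attractant, was the ligand with the highest level per kb of exon in every group. Its normalised counts were 3311, 3166, 3298 and 3632 in the untreated libraries, 2139, 1735 and 2389 with ATRA and 3093, 2908 and 2463 with Am80. With the inhibitors they were 11501, 17346 and 12076 beside ATRA and 18457, 16676 and 13070.0 beside Am80. Every library with inhibitors lay above every library without them, and every library with a retinoid alone lay below the untreated ones. The fall with ATRA was 0.69 ± 0.13 log2 units (difference ± SE throughout, adjusted p = 0.000466), and without ATRA replicate 2 it was 0.57, which is under the 1.5-fold limit. With Am80 the difference was -0.25 ± 0.13 (adjusted p = 0.166). Adding the inhibitors raised CXCL8 by 2.69 ± 0.14 over ATRA (adjusted p = 1.62e-11) and by 2.50 ± 0.14 over Am80 (adjusted p = 5.13e-11). Per kb of exon CXCL8 made up 64.8% of the level of the 11 expressed ligands in untreated cells. That share was 52.8% with ATRA and 59.6% with Am80, and 80.0% and 82.5% once the inhibitors were added.

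CXCL1, a close relative that acts through CXCR2, fell with each retinoid and rose again when the inhibitors were added. Untreated libraries held 538, 572, 544 and 615 normalised counts, ATRA libraries 219.8, 253 and 226 and Am80 libraries 234, 260.4 and 223. Libraries with inhibitors held 485, 694 and 552 beside ATRA and 697, 697 and 578 beside Am80, overlapping the untreated range. The falls were 1.28 ± 0.11 log2 units with ATRA (adjusted p = 6.13e-09) and 1.24 ± 0.11 with Am80 (adjusted p = 9.31e-09). The rises on adding the inhibitors were 1.29 ± 0.11 (adjusted p = 2.85e-08) and 1.45 ± 0.11 (adjusted p = 5.27e-09). Against untreated cells the differences were 0.01 ± 0.11 (95% interval -0.21 to 0.23) and 0.21 ± 0.11 (95% interval -0.01 to 0.43). This pattern differed from that of CXCL8, which ended 2.0 ± 0.13 and 2.25 ± 0.13 above untreated cells.

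CXCL3 and CXCL2, the other CXCR2 ligands of the cluster, were measured at far fewer reads. CXCL3 stood at 8.37, 11.1, 13.7 and 9.97 normalised counts in untreated cells, 5.78, 6.90 and 6.48 with ATRA and 8.36, 7.25 and 2.89 with Am80, and at 17.6, 28.3 and 22.7 in the combination with ATRA and 19.7, 20.6 and 23.2 in that with Am80. All 6 combination libraries lay above all others, and the retinoid libraries lay below the untreated ones, narrowly so in Am80 replicate 1. The rise over the retinoid was 1.67 ± 0.33 log2 units with ATRA (adjusted p = 0.000319) and 1.72 ± 0.33 with Am80 (adjusted p = 0.000296). Against untreated cells CXCL3 was higher by 1.01 ± 0.31 (adjusted p = 0.00756) and 0.93 ± 0.31 (adjusted p = 0.0146), the second of which had an adjusted p of 0.0562 with DESeq2 and 0.0519 without Am80 plus inhibitors replicate 3. The difference of -0.80 ± 0.31 with Am80 alone was not called (adjusted p = 0.058), but was without Am80 replicate 1 or untreated replicate 1 (adjusted p = 0.0315 and 0.0487) and with scaling to total reads (adjusted p = 0.0404), and that with ATRA was -0.66 ± 0.31 (adjusted p = 0.13). CXCL2 had means of 24.6 ± 9.71 (SD, n = 4) normalised counts in untreated cells and between 16.9 and 25.1 in the other groups (n = 3 each), with adjusted p of 0.38 and 0.359 on adding the inhibitors. The 95% intervals of those differences, -0.30 to 0.98 and -0.27 to 1.02, still allow a change of more than 1.5-fold. The lowest ATRA plus inhibitors library, at 23.87, lay just above the highest ATRA library, at 23.77, while the Am80 sets overlapped. Of all 50-base stretches of these genes, 12.5% in CXCL2, 6.01% in CXCL3 and 4.81% in CXCL1 also occur in another gene, so a share of their reads could have been lost or exchanged.

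CCL2, which attracts monocytes through CCR2, rose with each retinoid and rose further with the inhibitors. Its normalised counts were 128, 159.8, 159 and 204 in untreated cells, 518, 562 and 601 with ATRA and 567, 576 and 548 with Am80. They were 1195, 1328 and 1501 with ATRA plus inhibitors and 1184, 1263 and 1021 with Am80 plus inhibitors. The untreated, the retinoid and the combination libraries formed separate ranges. The retinoid rise was 1.79 ± 0.12 log2 units for ATRA (adjusted p = 1.15e-10) and 1.80 ± 0.12 for Am80 (adjusted p = 1.04e-10). The inhibitors added 1.26 ± 0.12 (adjusted p = 1.33e-07) and 1.03 ± 0.12 (adjusted p = 1.81e-06). Per kb of exon CCL2 passed from the fourth place among the expressed ligands in untreated cells, at 82.0 normalised counts per kb, to the second in every treated group, at 282 with ATRA and 675 with ATRA plus inhibitors.

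CCL20, the ligand of CCR6, which draws dendritic cells and some lymphocytes, followed the same steps at a lower level. It stood at 4.18, 4.62, 2.49 and 5.54 normalised counts in untreated cells, 22.2, 18.1 and 13.7 with ATRA and 15.8, 23.8 and 13.7 with Am80. The combinations held 37.1, 64.1 and 59.1 beside ATRA and 59.2, 70.1 and 57.9 beside Am80. These sets of libraries again did not overlap. CCL20 rose by 1.88 ± 0.27 log2 units with ATRA (adjusted p = 1.8e-05) and by 1.85 ± 0.27 with Am80 (adjusted p = 1.92e-05), and the inhibitors added 1.51 ± 0.29 (adjusted p = 0.000256) and 1.79 ± 0.29 (adjusted p = 5.48e-05). Its promoter, chr2:227813592-227813841 on the plus strand of GRCh38.p14, is shown for comparison because it holds the TATA box in capitals and no match to the letters GGANTTNCC. It holds the run ggggaaaacccc, and NF-kappaB sites spelled otherwise than GGANTTNCC were not searched.
CCL20: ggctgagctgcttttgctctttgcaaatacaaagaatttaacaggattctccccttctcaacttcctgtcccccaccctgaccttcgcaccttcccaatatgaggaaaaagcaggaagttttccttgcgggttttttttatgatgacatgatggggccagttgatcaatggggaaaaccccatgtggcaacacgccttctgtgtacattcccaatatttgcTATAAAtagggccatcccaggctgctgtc

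CCL23, a CCR1 ligand, and CCL24, an eosinophil attractant that acts through CCR3, rose with the retinoids and were not called when the inhibitors were added. CCL24 held 5.58, 5.54, 7.47 and 7.76 normalised counts in untreated cells, 23.1, 18.1 and 29.5 with ATRA and 28.8, 22.8 and 28.9 with Am80, then 13.7, 16.3 and 13.6 beside ATRA and 25.2, 13.7 and 16.7 beside Am80 in the combinations. All treated libraries lay above the untreated ones. The rise was 1.68 ± 0.26 log2 units with ATRA (adjusted p = 3.7e-05) and 1.88 ± 0.26 with Am80 (adjusted p = 8.2e-06), and the differences on adding the inhibitors were -0.64 ± 0.28 (adjusted p = 0.0595) and -0.54 ± 0.28 (adjusted p = 0.125). With edgeR the first of these was -0.71 with an adjusted p of 0.031, without ATRA replicate 2 it was -0.81 (adjusted p = 0.0398), and without Am80 plus inhibitors replicate 1 the second was -0.78 (adjusted p = 0.048). CCL23 went from 11.2, 11.1, 11.2 and 8.86 normalised counts in untreated cells to 14.5, 23.3 and 28.1 with ATRA and 26.9, 25.4 and 21.7 with Am80, a rise of 0.94 ± 0.28 (adjusted p = 0.0153) and 1.15 ± 0.28 (adjusted p = 0.00325). Its ATRA call was lost without ATRA replicate 2 (adjusted p = 0.0643) or replicate 3 (adjusted p = 0.102). Combination libraries held 18.5, 12 and 26.1 with ATRA and 21.9, 13.7 and 19.3 with Am80, 0.72 ± 0.28 and 0.72 ± 0.28 above untreated cells (adjusted p = 0.0297 and 0.0327). Both calls were lost with DESeq2, with no limit on low values and without untreated replicate 4 or replicate 1 or 3 of the combination, where the adjusted p reached 0.198 and 0.132. Of the 50-base stretches of CCL23, 6.44% also occur in another gene.

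CCL5, CCL22 and CXCL16 were called in no comparison. CCL5, which acts on CCR1 and CCR3, had means of 324 ± 32.7 normalised counts in untreated cells (SD, n = 4) and from 367 to 411 in the other groups (n = 3 each), and its largest difference was 0.34 ± 0.11 log2 units for Am80 plus inhibitors against untreated cells (adjusted p = 0.0101), under the fold limit. Of its 50-base stretches 13.9% occur elsewhere. CXCL16, a membrane-bound ligand of CXCR6, differed by -0.57 ± 0.20 between ATRA plus inhibitors and ATRA (adjusted p = 0.0208) and by -0.45 ± 0.20 for Am80 (adjusted p = 0.0718), the first just under the fold limit. It held 30.9, 37.1 and 36.7 normalised counts with ATRA and 26.4, 20.6 and 22.7 with ATRA plus inhibitors, which do not overlap, and edgeR and scaling to total reads called the difference, at -0.59 and -0.71. It was also called without replicate 1 of ATRA (-0.65) or of ATRA plus inhibitors (-0.66), and for Am80 without Am80 plus inhibitors replicate 2 (-0.64). CCL22, an attractant of regulatory T cells through CCR4, ranged from 12.2 to 29.3 in untreated libraries, a spread that covers all but 1 of the treated libraries.

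**Figure D2:**
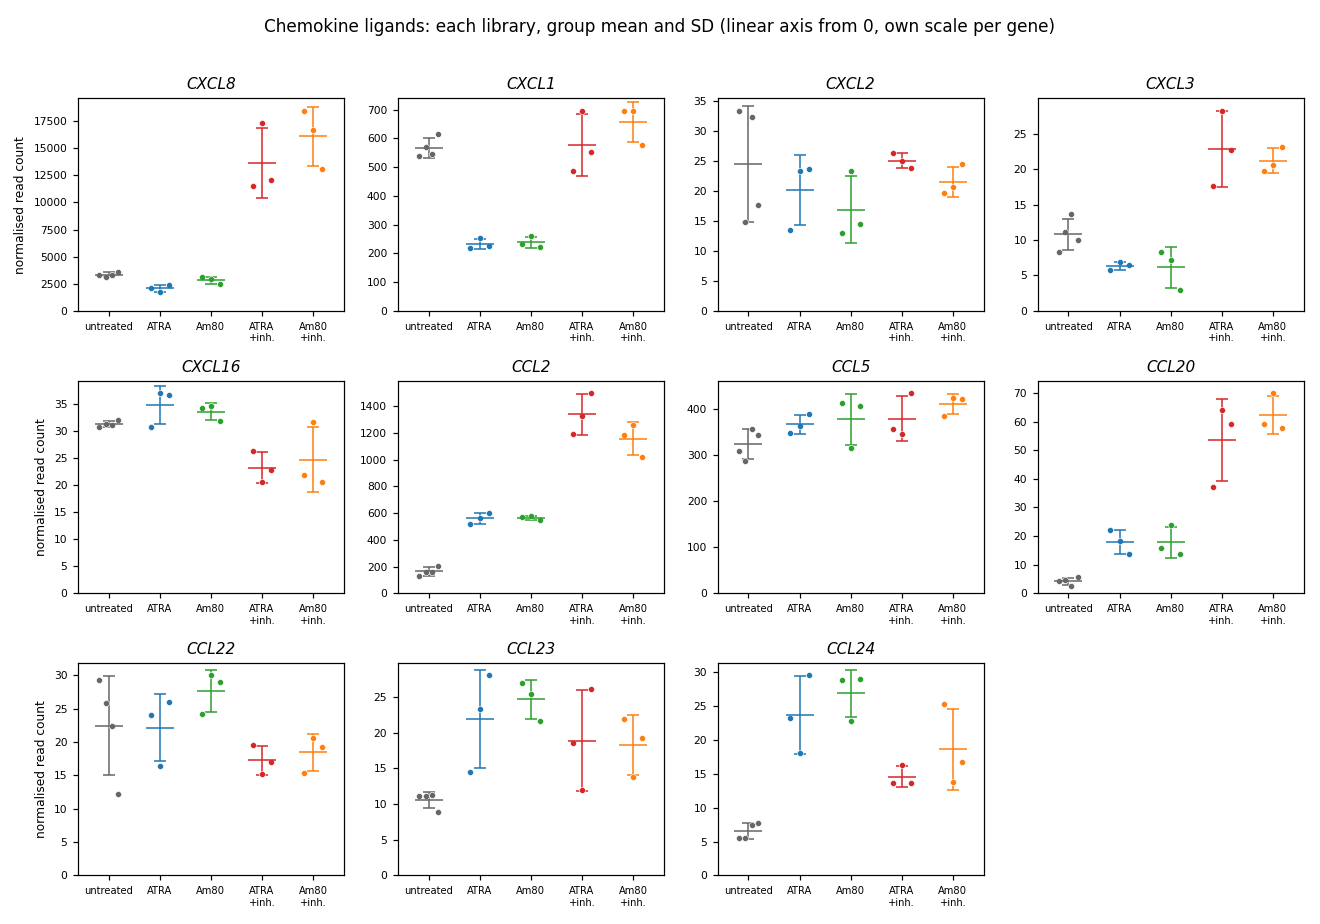
Normalised read counts of the 11 expressed ligands in each library (points), with the group mean and SD (bars) for 4 untreated and 3 libraries of each other group, on a linear axis from 0 with its own scale for each gene; inh. stands for GSK-LSD1 plus MB3. CXCL8, CXCL3, CCL2 and CCL20 are highest in the 6 libraries with inhibitors, whereas CCL23 and CCL24 are raised in the retinoid libraries and not further.

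Among the receptors, CXCR4, the CXCL12 receptor, had the highest level per kb of exon in every group, at 2854 normalised counts per kb in untreated cells. Normalised counts of CXCR4 were 6157, 6179.8, 6326 and 6728 in untreated cells, 8952, 8655 and 9436 with ATRA and 8590.0, 9258 and 8714 with Am80. With the inhibitors they were 9638, 9765 and 10373 beside ATRA and 9697, 9877 and 9782 beside Am80. Every treated library lay above every untreated one, and the combination libraries above those of their retinoid. The difference was 0.51 ± 0.06 log2 units with ATRA (adjusted p = 6.3e-07) and 0.48 ± 0.06 with Am80 (adjusted p = 1.31e-06), which pass the test and lie under the 1.5-fold limit. Against untreated cells the combinations were higher by 0.64 ± 0.06 and 0.63 ± 0.06 (adjusted p = 7.91e-09 and 1.18e-08), and by 0.50 and 0.44 after scaling to total reads, which is under the limit again.

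CCR1, a receptor for CCL5 and CCL23 on monocytes, was the second receptor per kb in every group. It rose from 2761, 3014, 3071 and 3300.5 normalised counts in untreated cells to 6836, 6536 and 6852 with ATRA and 6565, 6559 and 6333 with Am80, and stood at 5466, 5645 and 5879.8 beside ATRA and 5441, 5646 and 5563 beside Am80 in the combinations. The lowest treated library was well above the highest untreated one, and the combination libraries lay between the untreated and the retinoid libraries. The rise was 1.15 ± 0.06 log2 units with ATRA (adjusted p = 2.71e-12) and 1.10 ± 0.06 with Am80 (adjusted p = 6.24e-12). The differences on adding the inhibitors, -0.25 ± 0.06 and -0.22 ± 0.06, passed the test (adjusted p = 0.00298 and 0.00851) and stayed under the fold limit.

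CCR2, the receptor of CCL2, moved in the opposite direction to its ligand when the inhibitors were added. Its normalised counts were 1145, 1356, 1177 and 1352 in untreated cells, 1876, 1750.2 and 1983 with ATRA and 1921, 1946 and 1734 with Am80, and 869.9, 685 and 900.2 beside ATRA and 641, 659.7 and 712 beside Am80 in the combinations. The retinoid libraries lay above the untreated ones and the combination libraries below them. With the retinoids the differences of 0.57 ± 0.09 and 0.57 ± 0.09 log2 units (adjusted p = 5.07e-05 and 4.81e-05) stopped just short of 1.5-fold. Without untreated replicate 2 or 4 they were 0.61 each, and 0.62 each without ATRA replicate 2 and Am80 replicate 3, which is past it. On adding the inhibitors CCR2 fell by 1.20 ± 0.10 below ATRA (adjusted p = 7.68e-09) and by 1.47 ± 0.10 below Am80 (adjusted p = 4.19e-10). Against untreated cells it fell by 0.63 ± 0.09 and 0.90 ± 0.09 (adjusted p = 5.61e-06 and 4.24e-08), the first of which was 0.50 without ATRA plus inhibitors replicate 2 and so under the fold limit.

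CCR3, CCR2 and CCR1 lie within 197 kb of chromosome 3, from 46163604 to 46360928 in the GRCh38 annotation. CCR3, the receptor of CCL24, held 9.76, 10.2, 11.2 and 4.43 normalised counts in the untreated libraries. It held 17.4, 23.3 and 20.2 with ATRA, 25.1, 20.2 and 13 with Am80, and 12.7, 14.1 and 2.27 beside ATRA and 12.1, 12.4 and 14.2 beside Am80 in the combinations. Its rise with ATRA was 1.16 ± 0.42 (adjusted p = 0.0498) and its fall on adding the inhibitors 1.27 ± 0.45 (adjusted p = 0.0251). The first call was lost in 12 of the 16 fits that left out 1 library, with an adjusted p of up to 0.153, and the second was -0.55 with an adjusted p of 0.226 without ATRA plus inhibitors replicate 3, the lowest library, and was also lost without ATRA replicate 2 or 3 (adjusted p = 0.0823 and 0.0576). With Am80 CCR3 differed by 1.07 ± 0.42 (adjusted p = 0.0644), which was called with edgeR and DESeq2 and without Am80 replicate 3 or ATRA plus inhibitors replicate 3 (adjusted p = 0.0448 and 0.0116).

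CX3CR1, the fractalkine receptor of patrolling monocytes, was the receptor that fell with each retinoid. It held 347, 314, 345 and 361 normalised counts in untreated cells, 195, 142 and 168 with ATRA and 176, 176 and 179 with Am80, then 129, 113 and 142 beside ATRA and 106, 90.7 and 107 beside Am80 in the combinations. The untreated, retinoid and combination libraries did not overlap, although ATRA replicate 2 and ATRA plus inhibitors replicate 3 nearly met. CX3CR1 fell by 1.03 ± 0.11 log2 units with ATRA (adjusted p = 3.85e-07) and 0.94 ± 0.11 with Am80 (adjusted p = 1.27e-06). The inhibitors lowered it below Am80 by 0.80 ± 0.12 (adjusted p = 2.16e-05), and the difference from ATRA was -0.39 ± 0.12 (adjusted p = 0.0114), under the fold limit. The difference between these effects was -0.42 ± 0.17 with an adjusted p of 0.27.

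CXCR5, the CXCL13 receptor of B cells and a gene known to be induced early by retinoic acid in myeloid leukaemia cells, went from almost no reads to a clear signal. Untreated libraries held 1, 2, 0 and 0 reads, ATRA libraries 38, 54 and 48 and Am80 libraries 41, 88 and 84, and the combinations 61, 58 and 50 beside ATRA and 60, 47 and 57 beside Am80. Every treated library was far above every untreated one. Summed over each group and corrected for depth, the ratio to untreated cells was 45.6 with ATRA (exact 95% counting interval 15.3 to 224), 56.7 with Am80 (19.1 to 277), 69.9 with ATRA plus inhibitors (23.5 to 342) and 79.3 with Am80 plus inhibitors (26.7 to 388), intervals that cover counting error only. The fit gave adjusted p of 2.15e-10 for ATRA and 8.5e-11 for Am80, and 0.142 and 0.238 for adding the inhibitors. EdgeR and DESeq2 called the step from ATRA to ATRA plus inhibitors, at 0.61 log2 units each (adjusted p = 0.0201 and 0.0446), as did limma fitted on these 6 libraries alone (adjusted p = 0.00509). Over 3925 bases the exons of CXCR5 overlap those of BCL9L on the other strand, and whether the counting used strand is not given in the sources used here. BCL9L held 250.4 to 366 normalised counts in the untreated libraries in which CXCR5 had at most 2 reads, 617 to 629.7 with ATRA and 439.6 to 576 with Am80. Like CXCR5 it rose with both retinoids, by 0.98 ± 0.12 log2 units (adjusted p = 3.55e-06) and 0.73 ± 0.12 (adjusted p = 0.000128). On adding the inhibitors BCL9L fell by 0.73 ± 0.13 and 0.47 ± 0.13, the second under the fold limit, where CXCR5 differed by 0.61 ± 0.33 and 0.51 ± 0.33. Whether BCL9L reads entered the CXCR5 counts was not tested.

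ACKR3, an atypical receptor that takes up CXCL12, stood at 4.18, 13.9, 12.5 and 6.65 normalised counts in untreated cells, 35.7, 49.2 and 41.1 with ATRA and 48.3, 41.4 and 47.7 with Am80. In the combinations it stood at 32.2, 20.6 and 47.7 beside ATRA and 34.0, 24.7 and 20.6 beside Am80. All treated libraries were above the untreated ones. It rose by 2.18 ± 0.32 log2 units with ATRA (adjusted p = 2.38e-05) and 2.31 ± 0.32 with Am80 (adjusted p = 9.91e-06). The difference on adding the inhibitors was -0.38 ± 0.34 for ATRA (adjusted p = 0.375) and -0.80 ± 0.34 for Am80 (adjusted p = 0.0711). The second was called by edgeR (adjusted p = 0.0301) and by limma without untreated replicate 1 (adjusted p = 0.0373). Limma also called it on the compared groups alone (adjusted p = 0.0138), with a pseudocount of 5 (adjusted p = 0.0417) and with scaling to total reads (adjusted p = 0.0395). Every Am80 plus inhibitors library lay below every Am80 library.

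CXCR2, the receptor of CXCL8, CXCL1, CXCL2 and CXCL3, was called in no comparison. Untreated libraries averaged 271 ± 12.9 normalised counts (SD, n = 4), ATRA libraries 278 ± 7.22 and Am80 libraries 274 ± 11.5 (n = 3 each). The averages with inhibitors were 281 ± 31.4 beside ATRA and 260.4 ± 5.76 beside Am80 (n = 3 each). The 95% intervals of its differences, from -0.14 to 0.21 for ATRA to -0.26 to 0.12 for adding the inhibitors to Am80, lay inside the 1.5-fold limit. Of its 50-base stretches 6.29% occur in another gene, chiefly CXCR1 and CXCR2P1.

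**Figure D3:**
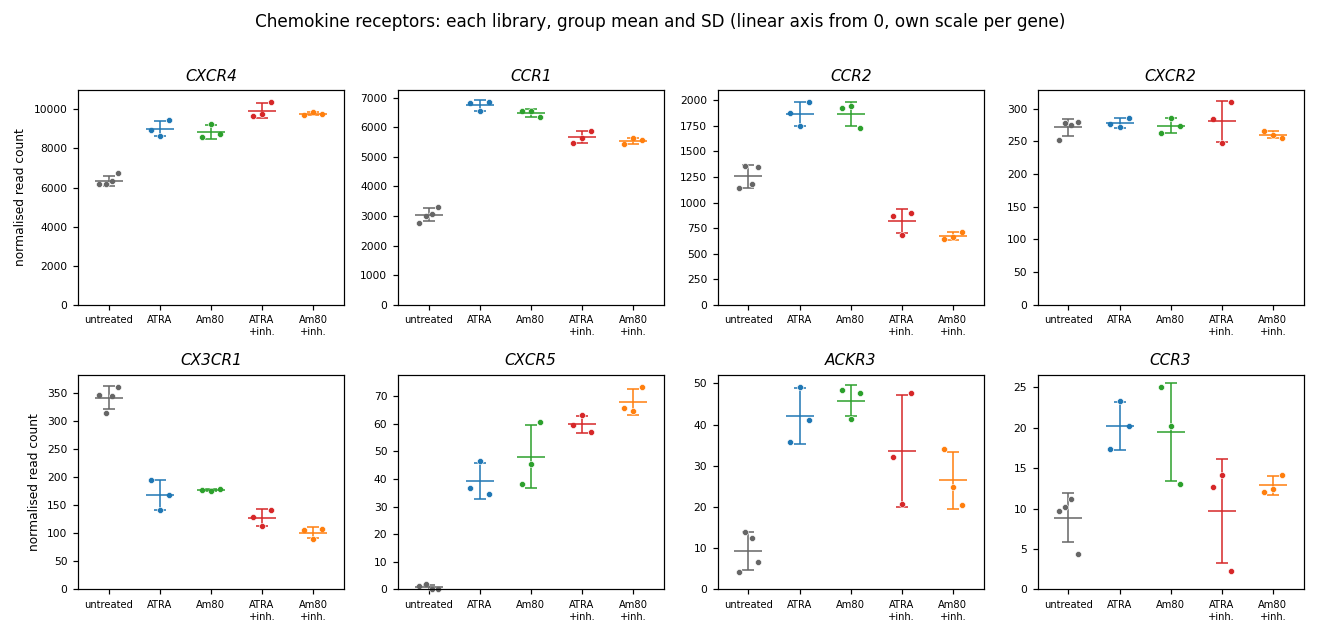
Normalised read counts of the 8 expressed receptors in each library (points), with the group mean and SD (bars) for 4 untreated and 3 libraries of each other group, on a linear axis from 0 with its own scale for each gene; inh. stands for GSK-LSD1 plus MB3. CCR2 is high with a retinoid alone and low with inhibitors, CX3CR1 steps down, and CXCR2 stays level.

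Ligands and receptors that bind each other took different courses in some pairs and the same course in others. For CXCL8 and CXCL1 with CXCR2, the inhibitors raised the ligands by 2.69 ± 0.14 and 1.29 ± 0.11 log2 units over ATRA, beside 0.01 ± 0.09 for the receptor. For CCL2 with CCR2 they were 1.26 ± 0.12 and -1.20 ± 0.10. The retinoids raised both members of the pair CCL23 and CCR1. CCL24 and CCR3 were both called higher with ATRA by limma, CCR3 at an adjusted p of 0.0498. With Am80 CCR3 differed by 1.07 ± 0.42 and was not called (adjusted p = 0.0644). Several partners of expressed members were near or at the floor, which counts as at most 3 reads in a library. CCR6, the receptor of CCL20, had no read in any library, CCR4 at most 1, CXCL13 at most 1, CX3CL1 at most 1 and CXCL12 at most 3, and CXCR1, the second CXCL8 receptor, at most 2. These partners were picked for their pairing after the values were known.

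Am80 and ATRA, 2 agonists that differ in the receptors they bind, were compared directly at their matched dose of 0.1 µM and time of 3 h, with 2 pairings of groups and 19 members, thus 38 differences adjusted within each pairing over all genes. Without the inhibitors limma called 0 of 19 members, beside 0.0478% of all genes, and 1 member and 2042 genes had an unadjusted p under 0.05. That member was CXCL8, 0.44 ± 0.14 log2 units higher with Am80 (95% interval 0.14 to 0.74, unadjusted p = 0.00558, adjusted p = 0.164), with every Am80 library above every ATRA library. With the inhibitors limma called 0 of 19 members, beside 0% of all genes, and 2 members and 2656 genes had an unadjusted p under 0.05. These were CCR2, at -0.28 ± 0.10 (95% interval -0.48 to -0.08, adjusted p = 0.176), and CX3CR1, at -0.33 ± 0.12 (95% interval -0.58 to -0.08, adjusted p = 0.182), both lower with Am80. Every Am80 plus inhibitors library lay below every ATRA plus inhibitors library for CX3CR1, whereas CCR2 overlapped. For CXCR5 every Am80 plus inhibitors library lay above, at a difference of 0.18 ± 0.33 (adjusted p = 0.8).

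EdgeR and DESeq2 also called 0 members in both pairings. A p that misses the threshold does not show that the retinoids act alike. The 95% interval lay wholly inside 1.5-fold for 9 of 19 members without inhibitors (CXCR4, CCR1, CCR2, CCL2, CXCL1, CCL5, CXCR2, CX3CR1 and CXCL16) and for 10 with them, those 9 and CXCL8. For the low members it was wide, at -1.04 to 0.85 for CCR3 and -0.43 to 0.97 for CXCR5 without inhibitors. The inhibitor effect on top of ATRA and on top of Am80 was compared in the interaction, where limma called 0 of 19 members, beside 0% of all genes, with 1 member (CX3CR1) and 2211 genes at an unadjusted p under 0.05, and edgeR and DESeq2 called 0.

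**Figure D4:**
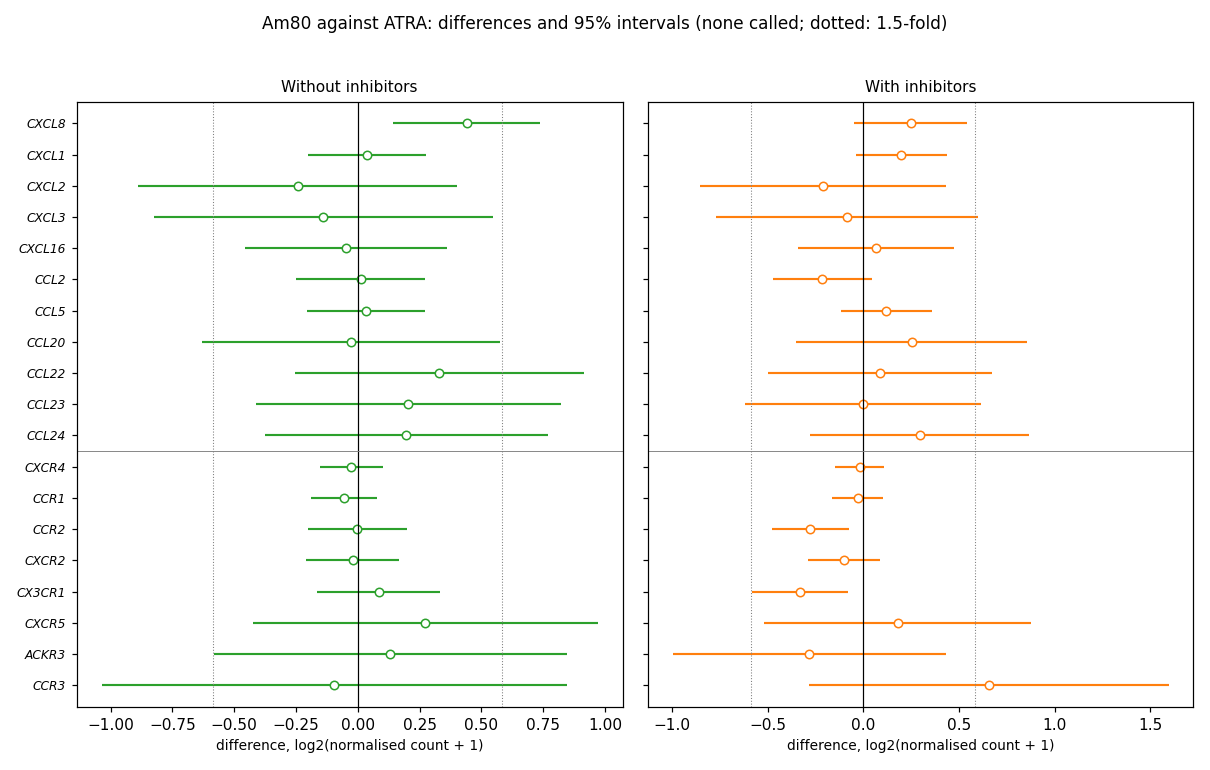
Differences between Am80 and ATRA for the 19 expressed members in log2(normalised count + 1), as limma estimates with 95% confidence intervals from 3 libraries a group, without the inhibitors (left) and with them (right); dotted lines mark 1.5-fold. None is called, and the intervals of the receptors CXCR4, CCR1 and CXCR2 are narrow while that of CCR3 passes the fold limit on both sides without the inhibitors.

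Genes around the chemokines were read from lists of known function. Their counts stand beside all genes tested, of which 6.52% were higher and 2.94% lower with ATRA, 6.41% and 3.76% with Am80, 8.15% and 11.4% on adding inhibitors to ATRA and 6.81% and 8.9% on adding them to Am80. Of 27 other early inflammatory response genes 18 were tested, with 6 higher and 1 lower with ATRA and 7 and 1 with Am80, and 9 higher and 2 lower when inhibitors were added to ATRA and 8 and 3 when added to Am80. The median difference of the list was 0.98 and 0.67 log2 units in the last comparisons, against -0.02 and -0.01 over all genes. The cytokine gene IL1B rose by 2.11 and 2.22 on adding the inhibitors to ATRA and Am80, TNF by 1.76 and 1.94, the plasminogen activator inhibitor SERPINB2 by 2.38 and 2.26, and the urokinase receptor PLAUR by 1.90 and 2.36. CSF1, the macrophage growth factor, was the list's largest fall there, at -1.30 and -1.23. With the retinoids alone the immediate early gene IER3 showed the largest rise, at 2.42 and 2.75, and IL1RN, the interleukin-1 antagonist, fell by 0.74 and 0.70. IL1B and TNF were called with neither retinoid alone.

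Of 22 chemoattractants and receptors outside the naming rule 11 were tested. With ATRA and with Am80 3 were higher and 2 lower, among them the receptor gene GPR35 at 1.79 and 1.78 log2 units and GPR183, an oxysterol receptor that guides immune cells, at -1.38 and -1.57. Adding the inhibitors gave 2 higher and 1 lower with ATRA and 2 and 2 with Am80: GPR183 rose by 1.30 and 1.58, the formyl peptide receptor FPR1 by 1.21 and 1.18, and the platelet-activating factor receptor PTAFR fell by 0.79 and 0.65. FPR2, a relative of FPR1, fell by 1.30 with Am80. GPR183 thus went down and back up in the order of steps seen for CXCL1.

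Chemokine receptor signalling was covered by 30 genes, 29 of them tested, with 3 higher and 2 lower with ATRA, 5 and 1 with Am80, 2 and 2 on adding inhibitors to ATRA, and 2 lower and the rest not called on adding them to Am80. On adding inhibitors to ATRA these counts of 2 of 29 are below the 8.15% and 11.4% of all genes. GNG2, a G protein gamma subunit, rose by 2.73 and 2.90 log2 units with the retinoids, and RGS16, which shortens G protein signals, by 2.43 and 2.37. RGS14, of the same family, fell by 0.78 and 0.92 with the retinoids and by a further 1.35 and 1.08 with the inhibitors, where the largest rise was RGS18 at 0.79 over ATRA.

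Of 10 factors that bind AU-rich mRNAs, all tested, 1 was called with each retinoid, lower, and 2 were higher and 1 lower on adding inhibitors to ATRA, and 4 and 1 on adding them to Am80. ZFP36L1, which promotes decay of such mRNAs, fell by 0.59 and 0.87 log2 units with ATRA and Am80 and rose by 1.36 and 1.68 with the inhibitors, whereas ZFP36L2 fell by 0.61 in both. Of 12 genes for chemokine cleavage, binding and shedding 11 were tested, with 1 called with each retinoid (MMP8, a neutrophil collagenase, higher by 0.79 and 0.93), and 2 called higher on adding inhibitors to ATRA and 1 on adding them to Am80. In a list of 11 genes, 1 call is close to the 6.52% and 6.41% of all genes called higher with the retinoids. The largest rise of this list on adding the inhibitors was ADAM17, a membrane protease that sheds TNF and CX3CL1, at 0.84 and 0.84.

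The 49 members under the limit on low values were 37 with reads and 12 without any. Of the 37, 22 had at most 3 reads in every library. CXCL6, a CXCR2 ligand in the chromosome 4 cluster, held 15.3, 14.8, 4.98 and 16.6 normalised counts in untreated cells, 3.86, 4.31 and 4.32 with ATRA and 11.1, 5.70 and 5.79 with Am80, and 8.79, 3.26 and 4.55 beside ATRA and 12.1, 4.12 and 5.15 beside Am80 in the combinations. The untreated group ranged widely and overlapped all but the ATRA libraries. CXCL11, an interferon-inducible ligand, had group means from 6.31 to 8.73, and CCL7, a relative of CCL2, from 5.96 to 8.35. The atypical receptor ACKR2 averaged 9.36 normalised counts with ATRA, 5.27 with Am80 and 4.57 without treatment, and 3.53 and 2.90 when inhibitors joined ATRA and Am80. CXCR6, the CXCL16 receptor, ranged from 1.70 to 5.06, and these members were not tested.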

How the data were processed

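RNA was sequenced from 16 OCI-AML3 libraries. The authors counted reads per gene on Galaxy and deposited signal values that are read counts divided by a DESeq2 size factor for each library. FastQC, cutadapt, STAR and featureCounts are named in the submitters' processing notes without versions, and the genome build, the annotation and the strand setting are not given in the sources used here. Sources also differ on the library kit. Reads were recovered from the smallest step of each library, and 100.0% of values came out whole (tolerance 0.001 read). All 62700 gene identifiers matched GENCODE v29 on GRCh38, which gave positions and exon lengths, and 0 columns were left unused. Libraries of a group were compared pairwise and all 18 pairs differed by more than counting noise (chi-square per degree of freedom 2.69 to 28.2). Untreated replicate 4 stood at 15.6, 23.4 and 22.8 from replicates 1, 2 and 3. Am80 replicate 2 stood at 18.3 and 28.2 from replicates 1 and 3. The highest value of the other pairs was 6.15.

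Genes averaging 10 or more normalised counts over all libraries were kept, transformed to log2(normalised count + 1) and fitted with limma 3.58.1 (R 4.3.3, trend, one coefficient per group, 16 libraries). Because of the pseudocount, fold changes of low genes are understated. P-values were adjusted by Benjamini-Hochberg over 14643 genes within each of 9 comparisons, and tests are two-sided. A call needs an adjusted p under 0.05 and over 1.5-fold. EdgeR 4.0.16 and DESeq2 1.42.0 on the recovered reads were alternatives, as were other pseudocounts, filters, limits and scalings, a replicate block and leaving out each library. The fit was tested on simulated data. Tables and figures used Python 3.11.15 with pandas 2.3.3, scipy 1.17.1, numpy 2.4.6 and matplotlib 3.10.9.

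Every expressed member is named with its values. Members under the filter are named where a group mean reached 5 normalised counts, and genes of the surrounding lists where they were called, at least the largest rise and fall. Withheld items are not reported here and enter no count of members. The members and the lists were chosen with earlier results of these data known. Depth sets the precision: a floor of 3 reads per library stands for 1.55 to 4.18 normalised counts. Counting intervals (exact, 95%) cover counting error only, and a ratio to a floor leaves out counting error in the treated reads. Sequences shared between genes were counted as 50-base stretches of GENCODE transcripts. Promoters came from RefSeq (GRCh38.p14).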

Additional observations from a re-analysis of the deposited data

Results flagged for a closer look

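CCL23 in untreated cells was set apart because 1 of its 4 libraries lay far from the others. Replicate 4 held 8.86 normalised counts against 11.2, 11.1 and 11.2 in replicates 1 to 3, a gap of 0.946 of the whole range, which is above Dixon's 95% critical value for 4 samples. The values stand for 8 to 12 reads, and 19 members were examined in this way, where chance gives about 1 such library in 20 groups. Without untreated replicate 4 the CCL23 differences of the combinations from untreated cells were 0.65 log2 units each and were no longer called (adjusted p = 0.0635 with ATRA plus inhibitors and 0.0674 with Am80 plus inhibitors).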

How the results depend on the processing

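Of 58 called differences of single members, 43 kept their call under every alternative, and none of the 171 differences changed direction as a call. The limit of an adjusted p under 0.01 with over 2-fold was the only setting that removed the calls of CCR1 in the combinations against untreated cells (0.90 with ATRA and 0.87 with Am80), of CX3CR1 with Am80 (-0.94) and on adding inhibitors to Am80 (-0.80), and of CCR2 with Am80 plus inhibitors against untreated cells (-0.90), all of which are under 2-fold. Calls lost under other settings were of CCL23, CCR2, CCR3, CXCL3, CXCL8 and CXCR4. A mean of at least 50 normalised counts left 9 members to test, of which 5 were called with ATRA, 4 with Am80, 4 on adding inhibitors to ATRA, and 6 in each combination against untreated cells. An adjusted p under 0.01 with over 2-fold left 7 calls for Am80 plus inhibitors against untreated cells, where 12 were made, and counts in the other comparisons stayed within 1.5 times. Leaving out each library in turn gave 9 to 11 calls with ATRA and with Am80, 6 to 8 on adding inhibitors to ATRA, 7 to 8 to Am80, 11 to 12 for ATRA plus inhibitors and 10 to 12 for Am80 plus inhibitors against untreated cells, and 0 in the direct comparisons and the interaction. Replicate numbers are shared between groups but did not pair the libraries: of 30 same-numbered pairs 4 had a correlation of deviations over 0.1 (range -0.11 to 0.19), and 4 of 15 libraries were closest to their own number. With the replicate block there were 11 calls with ATRA, 10 with Am80, 7 on adding inhibitors to each retinoid, 11 in each combination against untreated cells and 0 in the rest. Scaling to total reads brought the median of all genes to -0.15 and -0.19 in the combinations against untreated cells. Depth limits the 6 members with a group mean under 10 normalised counts, where a few reads decide a value.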

Other observations

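CCL26, an eosinophil-attracting ligand of CCR3 like CCL24, lay under the limit on low values and was singled out after its values were seen. It had 0 reads in all 4 untreated libraries, 3, 3 and 1 with ATRA, 3, 7 and 8 with Am80, 6, 3 and 2 with ATRA plus inhibitors, and 4, 3 and 3 with Am80 plus inhibitors. Every treated library held at least 1 read. Its observed level was corrected for depth and set against a floor of 3 reads over the whole untreated group. The ratio to that floor was 2.28 with ATRA, 4.79 with Am80, 4.55 with ATRA plus inhibitors and 4.84 with Am80 plus inhibitors. These ratios leave out counting error in the treated reads and so are not lower limits. No test was made of it.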
